A study of Homo sapiens with 136 samples.

Results

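PLX8394 is a RAF kinase inhibitor of the kind called paradox breakers, and its effect on gene expression was examined in AsPC-1, a human cell line from pancreatic ductal adenocarcinoma. The libraries were chosen by their titles: 4 AsPC-1 libraries treated with PLX8394, of 68 AsPC-1 libraries; the series holds PANC-1 libraries besides. 2 of the 4 received PLX8394 with hydroxychloroquine and 2 received PLX8394 with Compound 19, an inhibitor of the lipid kinase Vps34 that the titles write as VSP34I. They were set against 12 libraries of AsPC-1 cells treated with an autophagy inhibitor alone, 6 with hydroxychloroquine and 6 with the Vps34 inhibitor. After 24 h of growth the cells received drug for 24 h, and RNA was read by PLATE-Seq, a pooled RNA sequencing assay for multi-well plates. Each drug was given at the concentration that left 80% of cells viable after 48 h as a single agent, but no molar concentration was stated. Untreated cells and cells with PLX8394 but no autophagy inhibitor are not analysed here, so every comparison has an autophagy inhibitor on both sides. The titles name 2 plates, A and B. Each PLX8394 combination has 1 library on each plate, and each autophagy inhibitor alone has 3 on each. Whether libraries of a group came from separate cultures is not stated, so p-values rest on a spread between samples that could be technical.

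In the RAS pathway, active RAS recruits RAF kinases, which pair up and phosphorylate MEK, which phosphorylates ERK. ERK then induces a set of genes that includes its own brakes, the dual-specificity phosphatases and Sprouty proteins, and the transcription factors ETV4, ETV5 and FOSL1. In cells with active RAS, earlier RAF inhibitors can bind part of a RAF pair and activate its partner, which raises ERK signalling; paradox breakers were designed to avoid this. A stress response relevant to kinase inhibitors runs through ATF4, a transcription factor whose translation increases when the initiation factor eIF2 is phosphorylated, and which induces genes of amino acid synthesis and transport. Hydroxychloroquine raises lysosomal pH, and Vps34 makes the lipid that starts the autophagosome.

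The 4 PLX8394 libraries held between 1419228 and 4242939 counts, and the 12 alone libraries between 2135931 and 5172291. The PLX8394 library with the Vps34 inhibitor on plate A was the shallowest of the whole series. Replicates within the 4 groups correlated at 0.912 to 0.951 across genes (log2 counts), and no libraries were copies of each other. All 6 epithelial markers (EPCAM, KRT7, KRT8, KRT18, KRT19 and CDH1) were detected. Their summed level was 2720 to 3450 CPM (counts scaled to a library of 1e6) with PLX8394 and 2930 to 4040 CPM alone. Of 9 fibroblast markers, 5 were at 0 in every PLX8394 library, among them COL1A2 and PDGFRA. All 9 were detected in at least 1 of the 12 alone libraries, COL1A2 at up to 0.997 CPM and PDGFRA at up to 0.286 CPM. The summed level was 56.0 to 76.4 CPM with PLX8394 and 46.0 to 86.8 CPM alone, most of it LUM, at 52.1 to 74.5 CPM with PLX8394 and 43.1 to 84.6 CPM alone. The 10 immune markers summed to at most 7.05 CPM with PLX8394 and 12.7 CPM alone, with PTPRC at 0 in all, and the 6 endothelial markers to at most 1.11 CPM with PLX8394 and 1.97 CPM alone. Mitochondrial messenger RNA took on average 27.5% ± 4.0 of counts with PLX8394 and 26.98% ± 2.14 alone (SD, n = 4 and 12). None of 5 library measures (mitochondrial messenger and ribosomal RNA, ribosomal protein genes, the 10 largest genes and the library total) passed an exact permutation test within plate and autophagy inhibitor. The smallest adjusted p was 0.2344, and 0.003906 is the smallest unadjusted p that the 256 arrangements allow.

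The first question was whether ERK target genes move when PLX8394 is added. Averaged over both autophagy inhibitors, PLX8394 changed 97 of 12761 genes tested, 46 higher and 51 lower, or 0.76% of genes, 0.36% higher and 0.4% lower (edgeR quasi-likelihood test, adjusted p under 0.05). None of the 9 measured ERK targets was among them. Their median log2 fold change was 0.10, beside −0.04 over all genes, and single values ran from −0.36 to 0.42. None of 19 further ERK-dependent genes passed either (median 0.15, range −0.92 to 0.58), though 1 of the 19 was called lower with DESeq2, in a fit of only PLX8394 and alone libraries, and without 1 library of plate B with hydroxychloroquine alone. Among 28 immediate early genes, the first to respond to growth factors, 1 was higher and none lower. None of 21 members of the RAS, RAF, MEK and ERK cascade and none of 18 receptor tyrosine kinases and adaptors was called. At an unadjusted p under 0.05, 1222 of all genes would have been called. Of the 97 calls, 11 held in all 16 fits that left out 1 of the PLX8394 or alone libraries, 3 higher and 8 lower. Without the hydroxychloroquine library of plate A or B the total was 38 or 44, and without the Vps34 inhibitor library of plate A or B it was 60 or 38.

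SPRY4, a Sprouty protein that restrains receptor signalling, had 112.3 CPM on plate A and 237.5 CPM on plate B with PLX8394 and hydroxychloroquine, against a lowest, median and highest of 89.1, 127 and 189.9 CPM with hydroxychloroquine alone. Under the Vps34 inhibitor it had 88.4 and 114.6 CPM with PLX8394, against 62.1, 100.2 and 142 CPM alone. The groups overlapped with both autophagy inhibitors, and the plate B library was the higher of the PLX8394 libraries with each (log2 fold change 0.19 ± 0.17 SE, 95% interval −0.15 to 0.52, adjusted p = 0.789). DUSP6, a phosphatase that removes the activating phosphates from ERK, had 68.01 and 74.0 CPM with PLX8394 and hydroxychloroquine, against 62.6, 70.9 and 82.5 CPM with hydroxychloroquine alone. With Vps34 inhibited it had 47.0 and 60.0 CPM with PLX8394, against 46.8, 72.8 and 90.0 CPM alone. These values overlapped throughout (−0.18 ± 0.21, adjusted p = 0.857). DUSP4, its nuclear relative, gave 0.10 ± 0.11 (adjusted p = 0.849), and SPRY2, at 4.33 to 9.81 CPM in the PLX8394 libraries, gave −0.36 ± 0.35 (adjusted p = 0.818).

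Among the effector genes, CCND1, the cyclin that drives entry into S phase, was above every matched alone library in 4 of 4 PLX8394 libraries, where matched means the 3 alone libraries of the same plate and autophagy inhibitor. It had 241.5 and 231.7 CPM with PLX8394 and hydroxychloroquine, against 136.8, 195.7 and 237.9 CPM with hydroxychloroquine alone. In cells with the Vps34 inhibitor it had 186.7 and 151.4 CPM with PLX8394, against 87.5, 116.4 and 159.3 CPM alone. The difference did not pass the test over all genes (0.37 ± 0.17, adjusted p = 0.464), and 127 genes, 0.995% of those tested, lay above all matched libraries in this way. PHLDA1, a growth factor-induced regulator, had 350 and 360.1 CPM with PLX8394 and hydroxychloroquine, the second highest and highest of the 68 AsPC-1 libraries, but hydroxychloroquine alone reached 348.8 CPM, and with the Vps34 inhibitor the groups overlapped (mean 0.05 ± 0.11, adjusted p = 0.947). EPHA2, an ephrin receptor, gave 0.39 ± 0.19 (adjusted p = 0.527), and the transcription factors ETV4 and ETV5 gave 0.42 ± 0.45 and −0.16 ± 0.31. EGR1, an early-response zinc finger protein, had 51.5 and 34.7 CPM with PLX8394 and hydroxychloroquine, against 18.2, 30.2 and 34.5 CPM with hydroxychloroquine alone. With the Vps34 inhibitor it lay far lower in both, at 7.84 and 5.89 CPM with PLX8394, against 1.53, 6.02 and 8.81 CPM alone (mean over both 0.38 ± 0.32, adjusted p = 0.773). IER3, another early-response gene, was not called. It had 37.95 and 50.37 CPM with PLX8394 and hydroxychloroquine, and 21.38 and 26.28 CPM with PLX8394 and the Vps34 inhibitor. Of these 4 libraries, 1 was above and 2 were below all 3 matched alone libraries. BTG1, an antiproliferative gene, was the immediate early gene that rose (0.97 ± 0.19, adjusted p = 0.00137), a call lost without the Vps34 inhibitor library of plate B (adjusted p = 0.0604).

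**Figure D1:**
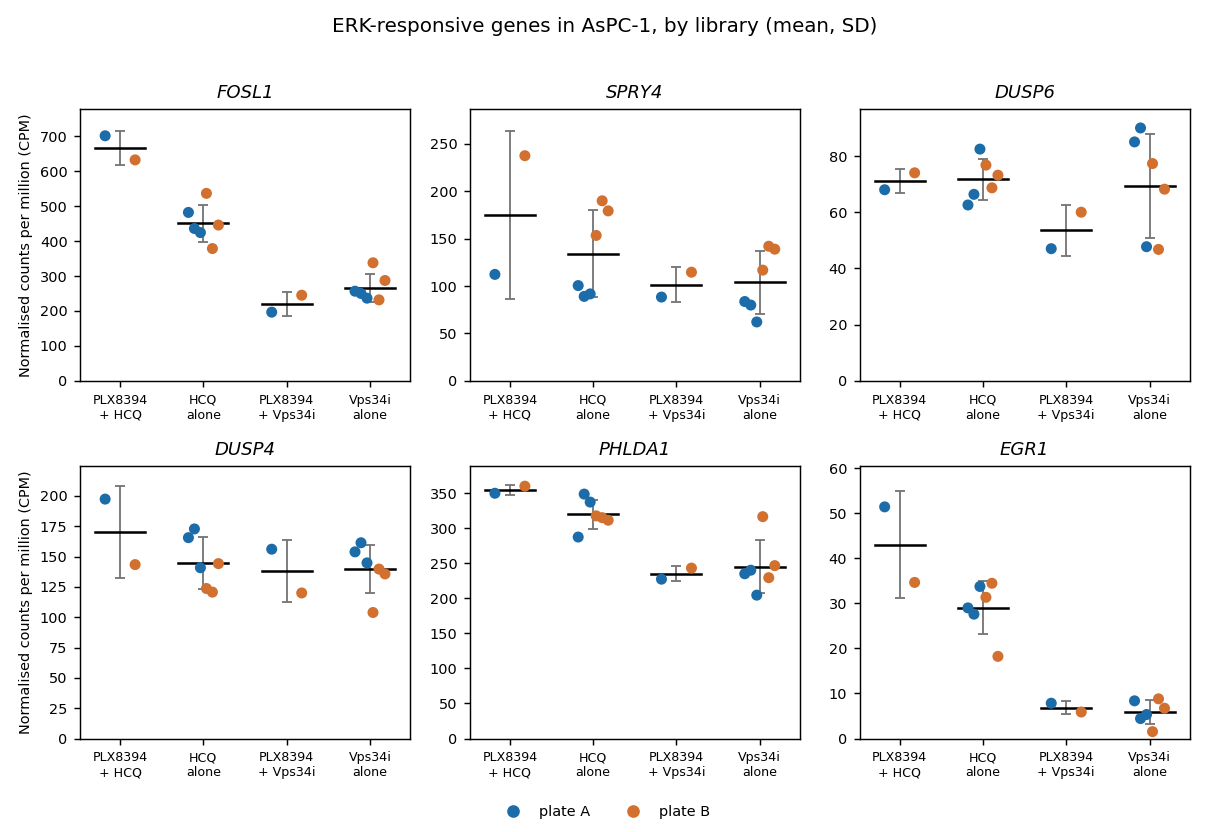
Normalised CPM of 6 ERK-responsive genes in each PLX8394 library (left of each pair) and each library of the autophagy inhibitor alone (right), coloured by plate; lines are group means and bars SD (n = 2 with PLX8394, n = 6 alone). With hydroxychloroquine, FOSL1 has 701.5 and 632.5 CPM with PLX8394, against at most 536.7 CPM alone. PHLDA1 has 350 and 360.1 CPM against at most 348.8 CPM alone, and EGR1 51.5 and 34.7 CPM against at most 34.5 CPM alone. The share of all genes that separate in this way was not counted. FOSL1 was singled out for its highest library, and PHLDA1 and EGR1 were not called in the mean over both autophagy inhibitors.

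FOSL1 encodes a subunit of the AP-1 transcription factor that ERK both induces and stabilises (chromosome 11, 65892049 to 65900573, minus strand; positions here are GENCODE 29 gene bounds on GRCh38). With hydroxychloroquine it had 701.5 CPM on plate A and 632.5 CPM on plate B with PLX8394, against 378.8, 441 and 536.7 CPM (lowest, median and highest) with hydroxychloroquine alone. These are the highest and second highest of the 68 AsPC-1 libraries, so both replicates were high. With the Vps34 inhibitor the direction was the other way, with 196.7 and 245.2 CPM with PLX8394, against 231.9, 253.4 and 338 CPM alone. The log2 fold change was 0.57 ± 0.17 with hydroxychloroquine and −0.27 ± 0.18 with the Vps34 inhibitor (SE). Without the plate A library the hydroxychloroquine value was 0.48 and without plate B 0.66. The difference between these effects was 0.83 ± 0.25 and their mean 0.15 ± 0.12. FOSL1 was singled out because its highest library was known to lie here, so its rank and its fold changes are descriptions, with no test.

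Set beside the other inhibitors, FOSL1 with PLX8394 was the highest group mean with hydroxychloroquine but not with the Vps34 inhibitor. With hydroxychloroquine it averaged 667 CPM with PLX8394, 350 CPM with sorafenib, 232 CPM with dabrafenib, 136.4 CPM with GDC-0879 and 80.7 CPM with RAF709, against 451 CPM alone. The 5 MEK inhibitors averaged between 50.4 and 121 CPM. With the Vps34 inhibitor it averaged 221 CPM with PLX8394, 239 CPM with sorafenib, 119 CPM with dabrafenib, 55.3 CPM with GDC-0879 and 51.1 CPM with RAF709, against 267 CPM alone, and the libraries of PLX8394, sorafenib and alone overlapped.

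**Figure D2:**
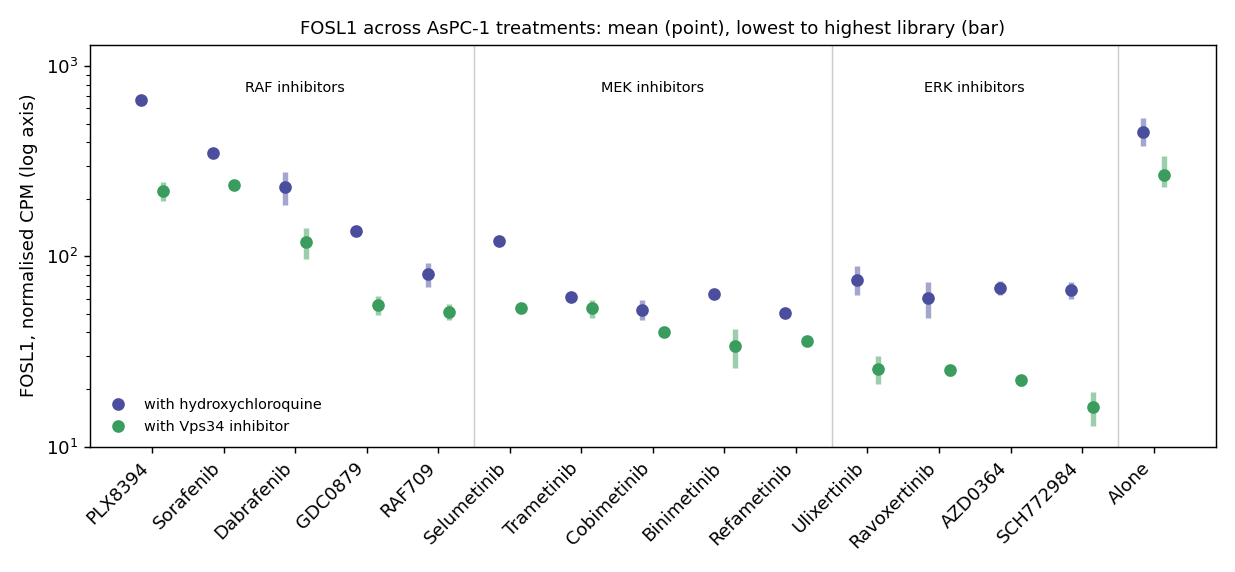
FOSL1 in normalised CPM on a log axis for each of the 14 kinase inhibitors and for the autophagy inhibitor alone (right) in AsPC-1; points are means and bars span the lowest to the highest library (n = 2 per combination, n = 6 alone). PLX8394 is at the left, with 667 CPM with hydroxychloroquine and 221 CPM with the Vps34 inhibitor.

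The direct tests asked how far ERK output with PLX8394 differs from that with other drugs of the pathway (4 against 4 libraries for each RAF inhibitor and 4 against 20 for the MEK inhibitors, 5 comparisons). Against the mean of the MEK inhibitors trametinib, cobimetinib, binimetinib, selumetinib and refametinib, 8 of 9 ERK targets were higher with PLX8394 and none lower, where 14.3% of all genes were called (7.15% higher and 7.14% lower). The median difference was 1.53 on the log2 scale, with SPRY4 at 3.03 ± 0.14 and DUSP6 at 1.81 ± 0.19, and the difference for FOSL1 was 2.86 ± 0.10. Against RAF709, 7 of 9 were higher (7.38% of genes called, 3.46% higher and 3.93% lower; SPRY4 2.45 ± 0.22, adjusted p = 3.87e-13), and against GDC-0879 6 of 9 (7.65% called, 3.47% higher and 4.18% lower; SPRY4 1.54 ± 0.21, adjusted p = 1.97e-07). Against dabrafenib 2 of 9 were higher (1.44% called, 0.838% higher and 0.603% lower), PHLDA1 by 0.77 ± 0.13 and SPRY4 by 1.21 ± 0.21, and the difference for FOSL1 was 1.21 ± 0.16. Against sorafenib none of the 9 was called (0.705% of genes called, 0.235% higher and 0.47% lower, median −0.08), and the difference for FOSL1 was 0.41 ± 0.15. These differences for FOSL1 are descriptions, with no test. Each drug was at its own concentration, so these differences hold for the treatments as given. Leaving out 1 library gave 87 to 173 calls over all genes against dabrafenib, 595 to 865 against GDC-0879, 21 to 73 against sorafenib and 1139 to 1459 against the MEK inhibitors. The comparisons share the PLX8394 libraries with each other and with the comparison against alone.

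ATF4 and some of its targets rose with PLX8394. ATF4 itself (chromosome 22, 39519695 to 39522685) had 175.2 CPM on plate A and 146.4 CPM on plate B with PLX8394 and hydroxychloroquine, against 79.6, 110.8 and 143.6 CPM with hydroxychloroquine alone. Beside the Vps34 inhibitor it had 234.5 and 210.7 CPM with PLX8394, against 81.7, 111 and 139.3 CPM alone. All 4 PLX8394 libraries were above every alone library of their autophagy inhibitor, and the mean rise passed the test (0.78 ± 0.12, adjusted p = 3.04e-05). Of 37 measured ATF4 targets, 6 rose and none fell, with a median of 0.41 beside −0.04 over all genes; that this list is higher with PLX8394 was already known when it was chosen here. Higher calls made up 0.36% of all genes. Without 1 PLX8394 library the count of targets was 3 to 5, and ATF4, ASNS and PSAT1 were the 3 higher genes called in all 16 leave-one-out fits.

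ASNS, which makes asparagine from aspartate and glutamine, rose most (chromosome 7, 97852118 to 97872542). It had 55.5 and 89.3 CPM with PLX8394 and hydroxychloroquine, against 24.9, 28.3 and 34.4 CPM with hydroxychloroquine alone. With the Vps34 inhibitor it had 284.4 and 348 CPM with PLX8394, against 39.1, 48.7 and 62.9 CPM alone. The groups did not overlap, and the rise was 1.29 ± 0.18 with hydroxychloroquine (adjusted p = 1.09e-05) and 2.66 ± 0.17 with the Vps34 inhibitor (adjusted p = 4.7e-18). PSAT1, an enzyme of serine synthesis (chromosome 9, 78297143 to 78330093), had 46.9 and 65.6 CPM with PLX8394 and hydroxychloroquine, against 24.5, 28.7 and 34.3 CPM with hydroxychloroquine alone. Under the Vps34 inhibitor it had 129 and 111.4 CPM with PLX8394, against 42.2, 46.9 and 52.5 CPM alone. Again no library overlapped, and the rise passed with each autophagy inhibitor (0.95 ± 0.22, adjusted p = 0.0385, with hydroxychloroquine and 1.35 ± 0.22, adjusted p = 6.33e-05, with the Vps34 inhibitor). Within 1 autophagy inhibitor, leaving out 1 library took the adjusted p to at most 0.0617 for ASNS with hydroxychloroquine, and to at most 0.801 with hydroxychloroquine and 0.0521 with the Vps34 inhibitor for PSAT1.

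The other 4 called targets were DDIT3, TRIB3, DDIT4 and CHAC1. DDIT3, the transcription factor CHOP (chromosome 12, 57516588 to 57521737), had 55.3 and 83.6 CPM with PLX8394 and hydroxychloroquine, against 32.1, 42.6 and 52.9 CPM with hydroxychloroquine alone, and 32.1 and 59.2 CPM with PLX8394 and the Vps34 inhibitor, against 17.7, 24.8 and 31.5 CPM alone (0.79 ± 0.16, adjusted p = 0.00319). TRIB3, a pseudokinase induced by CHOP and ATF4, rose by 1.15 ± 0.25 (adjusted p = 0.00666). DDIT4, an inhibitor of the growth kinase complex mTORC1, rose by 1.37 ± 0.32 (adjusted p = 0.0221), with 68.8, 52.9, 26.4 and 47.9 CPM in the 4 PLX8394 libraries, against 9.16 to 33.9 CPM with hydroxychloroquine alone and 9.74 to 26.3 CPM with the Vps34 inhibitor alone. CHAC1, which degrades glutathione, rose by 1.71 ± 0.41 (adjusted p = 0.023), to 5.62 to 13.3 CPM with PLX8394, against at most 4.59 CPM in any alone library. For these 4 genes, as for ATF4, ASNS and PSAT1, each of the 4 PLX8394 libraries was above all 3 matched alone libraries. Of all genes tested, 0.995% lay above in this way. The genes named here were called higher in these same libraries, so their position is no separate support. Each of these 4 calls was lost without at least 1 PLX8394 library, with an adjusted p of up to 0.34 for DDIT3, 0.0905 for TRIB3, 0.285 for DDIT4 and 0.425 for CHAC1. The cystine carrier SLC7A11 (0.68 ± 0.21, adjusted p = 0.134) and the stress cytokine GDF15 (1.69 ± 0.52, adjusted p = 0.133) did not pass, and neither did the eIF2 kinase genes EIF2AK1, EIF2AK2, EIF2AK3 and EIF2AK4.

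**Figure D3:**
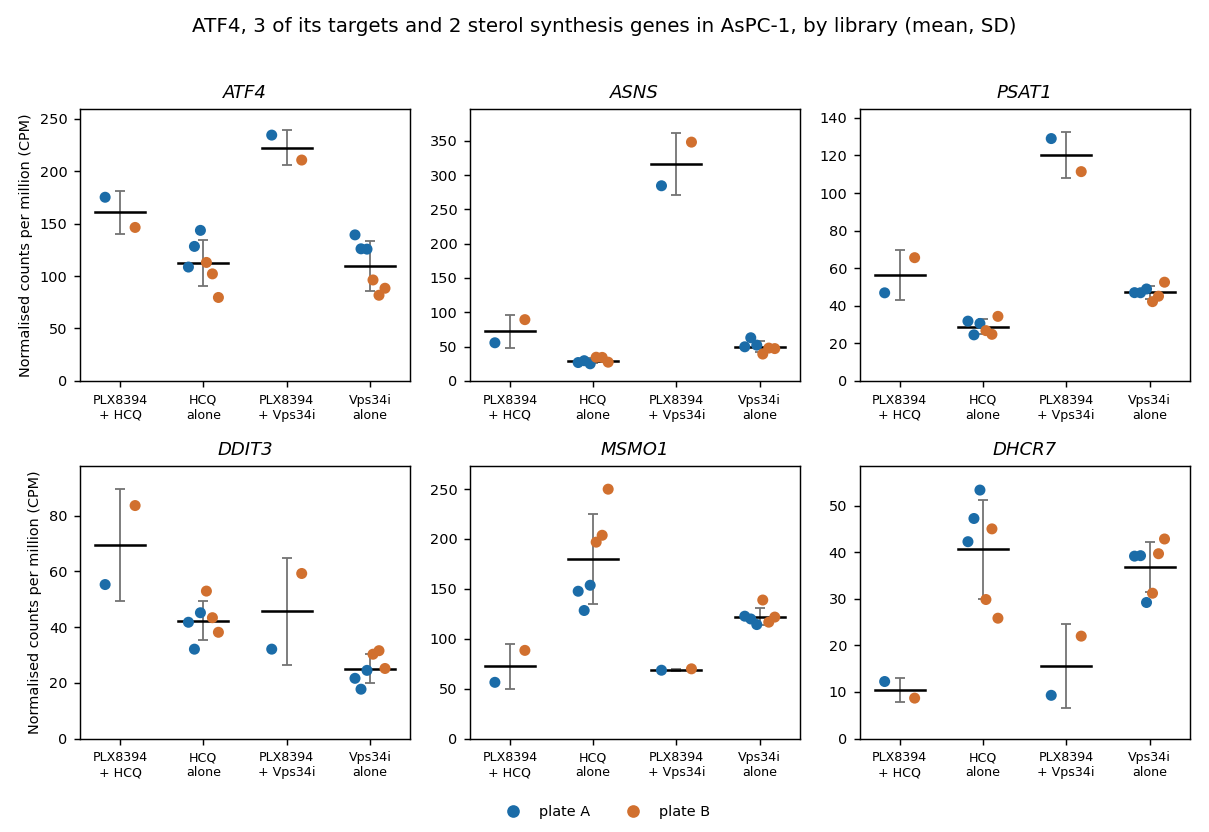
Normalised CPM of ATF4, its targets ASNS, PSAT1 and DDIT3, and the sterol synthesis genes MSMO1 and DHCR7 in each PLX8394 library (left of each pair) and each library of the autophagy inhibitor alone (right), coloured by plate; lines are group means and bars SD (n = 2 with PLX8394, n = 6 alone). ASNS reaches 284.4 and 348 CPM with PLX8394 and the Vps34 inhibitor, and MSMO1 lies below every alone library in all 4 PLX8394 libraries.

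ATF4 binds DNA together with CCAAT-enhancer binding proteins at an element whose core can be written TGATGNAA. In RefSeq promoter windows (GRCh38.p14, 250 bases before to 50 after the gene start), read on both strands, this motif stood in 2 of the 6 called targets, ASNS and CHAC1. Both windows are shown because they belong to the most and second most raised of the called targets and carry the motif, in capitals (in CHAC1 as the reverse complement). The ASNS window is chr7:97872359-97872658 on the minus strand, with the motif starting 68 bases before the gene start, and the CHAC1 window is chr15:40953221-40953520 on the plus strand, with the motif starting 209 bases before it.
ASNS: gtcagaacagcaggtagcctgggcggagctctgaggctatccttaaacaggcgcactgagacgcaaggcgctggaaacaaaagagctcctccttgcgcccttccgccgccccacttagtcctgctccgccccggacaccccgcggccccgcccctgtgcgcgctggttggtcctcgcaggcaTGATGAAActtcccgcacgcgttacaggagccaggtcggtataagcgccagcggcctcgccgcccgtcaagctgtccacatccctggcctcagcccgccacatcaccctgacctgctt
CHAC1: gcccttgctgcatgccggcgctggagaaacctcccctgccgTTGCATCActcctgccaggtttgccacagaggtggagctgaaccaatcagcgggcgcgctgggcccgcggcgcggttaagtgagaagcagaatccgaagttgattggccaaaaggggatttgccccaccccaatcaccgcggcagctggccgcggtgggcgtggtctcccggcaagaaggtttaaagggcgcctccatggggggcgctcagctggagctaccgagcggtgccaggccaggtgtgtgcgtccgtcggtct
Among measured ATF4 targets with a window, 5 of 29 held the motif (17.2%), against 1.78% of 10022 windows of genes tested and 3.67% of all 27305 windows. Of the cytosolic aminoacyl-tRNA synthetases with a window, 6 of 16 measured members held it (37.5%), but none of the 3 called ones. A match describes the letters and is not a measured binding site.

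The cytosolic aminoacyl-tRNA synthetases, which load amino acids onto transfer RNAs and are in part ATF4-responsive, rose in 4 of 20 cases and fell in none (median 0.15, beside −0.04 over all genes, of which 0.36% were called higher). GARS1, for glycine, had 153.1 and 147.1 CPM with PLX8394 and hydroxychloroquine, against 81.5, 105.6 and 125.2 CPM with hydroxychloroquine alone, and 174.6 and 305.2 CPM with PLX8394 and the Vps34 inhibitor, against 96.9, 113.8 and 140.1 CPM alone (0.80 ± 0.15, adjusted p = 9.73e-04). YARS1, for tyrosine, rose by 0.67 ± 0.14, EPRS1, for glutamate and proline, by 0.51 ± 0.13, and SARS1, for serine, by 0.48 ± 0.11. In PLX8394 libraries these 3 ranged from 48.9 to 141.8 CPM, and YARS1 on plate A with hydroxychloroquine was the value within the range of its alone group. Without 1 PLX8394 library, 1 to 3 of the 4 remained called.

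Few genes of other stress programmes were called, beside 0.36% of all genes called higher and 0.4% called lower. Of 26 endoplasmic reticulum folding genes 1 rose, XBP1, a transcription factor of the unfolded protein response (0.69 ± 0.17, adjusted p = 0.0254). Of 20 cytosolic heat shock genes 1 fell, the constitutive chaperone HSPA8, with 681.9 and 860 CPM with PLX8394 and hydroxychloroquine, against 816.5, 924.6 and 1001 CPM with hydroxychloroquine alone, and 702.8 and 809.7 CPM with PLX8394 and the Vps34 inhibitor, against 908.4, 968.8 and 1124 CPM alone (−0.32 ± 0.08, adjusted p = 0.0264). Leaving out 1 library took the adjusted p to at most 0.208 for XBP1 and 0.299 for HSPA8. None of 27 NRF2 targets, 21 p53 targets, 45 interferon response genes, 39 autophagy genes or 7 BCL2 family genes passed. All 8 measured genes of the metallothionein list, zinc-binding proteins and the zinc exporter SLC30A1, had fold changes above 0 (median 0.46, highest MT1F at 1.26 ± 0.38), but none passed, and reads of these close paralogs can be assigned to the wrong member.

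Genes of sterol and fatty acid synthesis fell with PLX8394: 12 of 32 measured members were lower and none higher, with a median of −0.64, where 0.4% of all genes were called lower. Without 1 PLX8394 library the count was 6 to 9, and MSMO1, ACAT2, FDFT1, SC5D, DHCR7 and IDI1 were called in all 16 leave-one-out fits. MSMO1, a sterol demethylating oxidase (chromosome 4, 165327623 to 165343160), had 56.3 and 88.3 CPM with PLX8394 and hydroxychloroquine, against 128.3, 175.2 and 249.9 CPM with hydroxychloroquine alone. With Vps34 inhibited it had 68.4 and 69.8 CPM with PLX8394, against 114.2, 120.8 and 138.8 CPM alone. No library overlapped, and MSMO1 fell with each autophagy inhibitor (−1.32 ± 0.17, adjusted p = 8.94e-07, with hydroxychloroquine and −0.83 ± 0.17, adjusted p = 0.00353, with the Vps34 inhibitor, or 0.347 without its plate B library). DHCR7, which makes cholesterol in the last step of the pathway, had 12.2 and 8.67 CPM with PLX8394 and hydroxychloroquine, against 25.8, 43.6 and 53.3 CPM with hydroxychloroquine alone. In cells with the Vps34 inhibitor it had 9.27 and 22.0 CPM with PLX8394, against 29.2, 39.2 and 42.8 CPM alone, again without overlap (−1.55 ± 0.28, adjusted p = 0.00134). Of all genes tested, 1.27% lay below every matched alone library in all 4 PLX8394 libraries. MSMO1 and DHCR7 were named because they were called lower in these same libraries, so their lack of overlap is no separate support. The count of this list was followed after its values were seen.

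Along the pathway, falls were found from early to late steps. ACAT2, which joins acetyl-CoA units, fell by 1.21 on the log2 scale (SE 0.20), and the mevalonate enzyme MVD by 2.20 (SE 0.57), at 0.234 to 0.785 CPM in the PLX8394 libraries. IDI1, which isomerises the building block of isoprenoids, fell by 1.06 (SE 0.19), FDPS by 0.62 (SE 0.15) and squalene synthase FDFT1 by 0.66 (SE 0.11). Of the later sterol enzymes, CYP51A1 fell by 0.53 (SE 0.14), NSDHL by 0.86 (SE 0.18) and SC5D by 0.84 (SE 0.15). The sterol carrier STARD4 and the fatty acid desaturase FADS2 were also called lower (−2.12 ± 0.48 and −1.45 ± 0.35). FADS2 with the Vps34 inhibitor overlapped its alone group, and STARD4 was at 0 in 1 PLX8394 library. HMGCS1, an early synthase of the pathway (−0.19 ± 0.31), the LDL receptor (−0.32 ± 0.21) and the regulator SREBF1 (0.03 ± 0.20) were not called. In the promoter windows of 10 called members, the sterol regulatory element core TCACNCCAC was found in none (both strands, 1.11% of windows of genes tested); this says only that these letters are not in these windows.

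**Figure D4:**
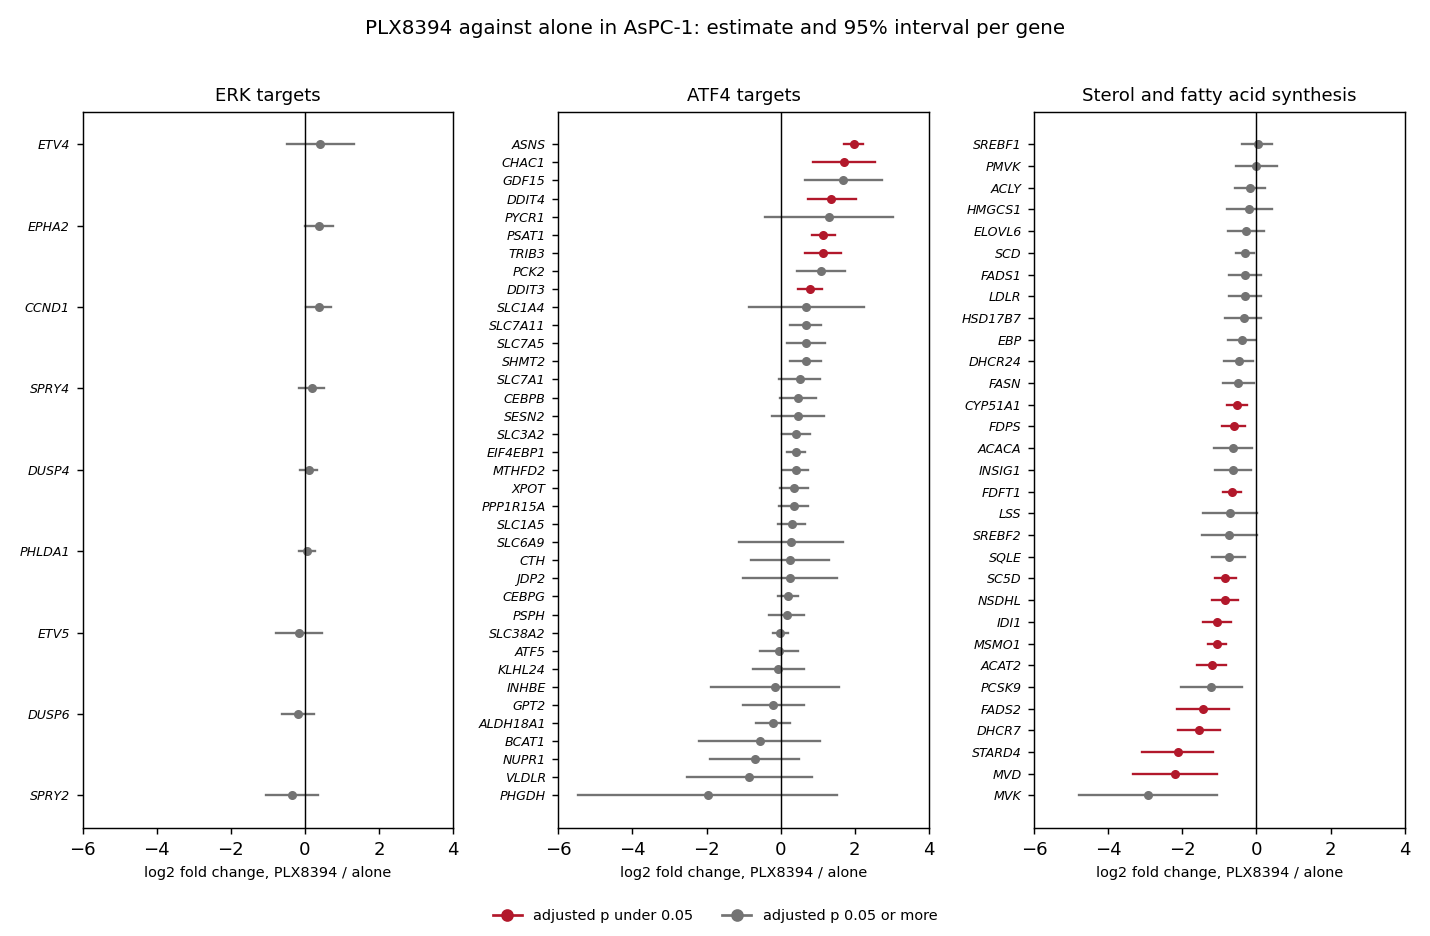
Log2 fold change with its 95% interval for every measured ERK target (left), ATF4 target (middle) and sterol or fatty acid synthesis gene (right), PLX8394 over alone, mean over both autophagy inhibitors; red marks adjusted p under 0.05, and 1 sterol gene that was not called is not drawn. No ERK target is red, 6 of 37 ATF4 targets are red above 0, and 12 of 32 sterol and fatty acid genes are red below 0.

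A few genes of cell division also fell. Of 44 G1/S replication genes 3 were lower and none higher (median −0.37), and 1 of 50 G2/M genes was lower, where 0.4% of all genes were called lower and 0.36% higher. PCNA, the sliding clamp of DNA polymerase, had 165.1 and 253 CPM with PLX8394 and hydroxychloroquine, against 233.9, 268.4 and 321.5 CPM with hydroxychloroquine alone. Beside the Vps34 inhibitor it had 204.6 and 211.1 CPM with PLX8394, against 343.6, 385.7 and 424.4 CPM alone. The groups overlapped with hydroxychloroquine and did not with the Vps34 inhibitor (mean −0.65 ± 0.10, adjusted p = 1.13e-04). RRM2, which supplies deoxynucleotides, gave −0.64 ± 0.14, and the mitotic kinase CDK1 gave −0.48 ± 0.12. Among called genes that averaged at least 5 on the log2 CPM scale, those that fell furthest were DHCR7, ACAT2, MSMO1, IDI1, SC5D, the membrane insertion factor GET1 (−0.83 ± 0.20), the centromere protein CENPK (−0.82 ± 0.18) and SHCBP1, a spindle midzone protein (−0.80 ± 0.15). The glycolytic enzymes PGAM1 (−0.54 ± 0.11) and PKM (−0.43 ± 0.11) fell, 2 of 29 genes of the hypoxia and glycolysis list. Of 24 epithelial genes 1 fell, the keratin KRT8 (−0.46 ± 0.10), and 1 rose, the galectin LGALS4 (0.50 ± 0.12). PCNA was called in all 16 leave-one-out fits, as was FGFBP1, a carrier of fibroblast growth factors named after its values were seen (−1.01, adjusted p = 6.39e-04), and each other call of this paragraph outside the sterol genes was lost in at least 1. LGALS4 had 287.9 CPM in the plate B library with the Vps34 inhibitor and 114.0 to 118.8 CPM in the other PLX8394 libraries, and gave 0.14 without it (adjusted p = 0.896). In bulk samples, fewer cycling cells and less RNA per cell cannot be told apart.

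6 of the 8 largest rises by the same rule rested on 1 PLX8394 library each. ZNF546, a zinc finger gene, had 3749 CPM in the Vps34 inhibitor library on plate B and 2.58 to 15.7 CPM in the other PLX8394 libraries, against at most 5.94 CPM in any alone library. TNRC6B, a microRNA effector, had 1053 CPM in that same library and 27.2 to 52.8 CPM in the others. SPG7, a mitochondrial protease, had 1201 CPM, SHOX, a homeobox gene, 702.1 CPM and the co-chaperone DNAJB6 379.9 CPM in the Vps34 inhibitor library on plate A. RGS16, a brake on G proteins, had 1770 CPM in the hydroxychloroquine library on plate B and 23.9 to 136.1 CPM in the others. The other 2 of the 8, ASNS and PSAT1, were raised in all 4 libraries. Without its 1 high library, the value was 0.85 for ZNF546, 0.34 for TNRC6B, 0.22 for SPG7, 0.18 for SHOX, 0.05 for DNAJB6 and 0.62 for RGS16, none of them called.

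By autophagy inhibitor, PLX8394 changed 33 genes with hydroxychloroquine (22 higher and 11 lower, 0.259% of genes, or 0.172% and 0.0862%) and 82 with the Vps34 inhibitor (50 higher and 32 lower, 0.643%, or 0.392% and 0.251%). These counts do not show a difference in effect, which was tested directly: 16 genes differed, 3 with a more positive and 13 with a more negative effect with hydroxychloroquine (0.125% of genes, or 0.0235% and 0.102%). Without the hydroxychloroquine library of plate A or B, 0 or 7 genes were called, and 0 when only PLX8394 and alone libraries entered the fit. Among ATF4 targets it was ASNS alone (−1.37 ± 0.27, adjusted p = 0.0108), whose rise was larger with the Vps34 inhibitor (−1.10, adjusted p = 0.361, without the hydroxychloroquine library of plate A). RPA2, a subunit of the single-strand DNA binding complex, had 12.5 and 15.9 CPM with PLX8394 and hydroxychloroquine, against 6.47, 11.4 and 13.3 CPM with hydroxychloroquine alone, but 3.56 and 2.75 CPM with PLX8394 and the Vps34 inhibitor, against 10.3, 14.6 and 17.0 CPM alone (difference 2.61 ± 0.52, adjusted p = 0.0108, at most 0.317 without 1 PLX8394 library). FAM83A, a signalling adaptor that binds RAF, had 492.9 and 611.9 CPM with PLX8394 and hydroxychloroquine, against 229.3, 262.5 and 454.7 CPM with hydroxychloroquine alone, and 233.1 and 213.4 CPM with PLX8394 and the Vps34 inhibitor, against 270.5, 327.6 and 461.6 CPM alone (difference 1.57 ± 0.34, adjusted p = 0.035, lost in 12 of 16 leave-one-out fits). C7orf50 went the other way, with 16.3 and 16.9 CPM with PLX8394 and hydroxychloroquine, against 19.7, 24.5 and 30.9 CPM with hydroxychloroquine alone, and 49.2 and 59.2 CPM with PLX8394 and the Vps34 inhibitor, against 20, 25.8 and 31.6 CPM alone (difference −1.70 ± 0.32, adjusted p = 0.00692). HS3ST1, TNRC6B and INTS6 were also called, each on 1 library, at 1509, 1053 and 284 CPM. CEBPB, a partner of ATF4, rose with hydroxychloroquine (1.33 ± 0.31, adjusted p = 0.0317; 39.2 and 48.5 CPM with PLX8394, against 13.47, 15.84 and 27.71 CPM alone) and gave −0.39 ± 0.37 with the Vps34 inhibitor, but the difference did not pass (1.72 ± 0.49, adjusted p = 0.254), and the rise was lost in 7 of 8 leave-one-out fits.

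The stress and sterol genes were also set against the other inhibitors. ASNS with the Vps34 inhibitor averaged 316 CPM with PLX8394 and 266 CPM with dabrafenib, and between 52.9 and 79.7 CPM with the other 12 kinase inhibitors. With hydroxychloroquine ASNS averaged 72.4 CPM with PLX8394, against 84.0 CPM with dabrafenib. There ATF4 averaged 160.8 CPM with PLX8394, against 161.6 CPM with dabrafenib, 160.3 CPM with GDC-0879 and 160.2 CPM with sorafenib, and the libraries of these 4 drugs overlapped. CHAC1 and TRIB3 with hydroxychloroquine averaged 6.25 and 20.01 CPM with PLX8394, against 8.59 and 25.6 CPM with the ERK inhibitor AZD0364, again with overlap. PLX8394 and dabrafenib differed for ASNS by 0.01 ± 0.16 (95% interval −0.32 to 0.34) and for ATF4 by −0.07 ± 0.15 (−0.37 to 0.23). Of the 37 ATF4 targets, 1 was higher with PLX8394 than with dabrafenib and none lower, where 0.838% of all genes were higher and 0.603% lower. The 1 target was SLC7A11 (1.00 ± 0.27, adjusted p = 0.0372, lost in 7 of 8 leave-one-out fits). Against GDC-0879, RAF709, sorafenib and the MEK inhibitors, 7, 9, 3 and 16 of the 37 were higher, where 3.47%, 3.46%, 0.235% and 7.15% of all genes were. In the same order, 1, 1, 0 and 2 were lower, where 4.18%, 3.93%, 0.47% and 7.14% of all genes were. ASNS was higher by 1.48 ± 0.17, 1.68 ± 0.17, 1.92 ± 0.17 and 1.68 ± 0.12 in these comparisons, in the same order.

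Some sterol and fatty acid synthesis genes were lower with PLX8394 than with each of these drugs. The comparisons share the PLX8394 libraries in which this list was already seen to be low. The number lower was 10 of 32 against dabrafenib, 14 against GDC-0879, 18 against RAF709, 14 against sorafenib and 23 against the MEK inhibitors, and none was higher in any of them. Of all genes, 0.603%, 4.18%, 3.93%, 0.47% and 7.14% were called lower in these comparisons, in the same order. MSMO1 differed by −1.01 ± 0.14 from dabrafenib (adjusted p = 1.44e-06) and by −1.90 ± 0.12 from the MEK inhibitors (adjusted p = 1.06e-19). Against the autophagy inhibitor alone, its mean over both autophagy inhibitors was −1.07. For this list the other drugs were not set against alone, so these counts do not measure a fall from alone. NRF2 targets, which serve antioxidant defence, were lower in 6 and higher in 1 of 27 cases against dabrafenib (median −0.34, beside −0.02 over all genes). Against GDC-0879, RAF709 and the MEK inhibitors 8, 9 and 10 of the 27 were lower and 1, 1 and 3 higher. Against sorafenib none was lower and 2 were higher. Of all genes, 0.838% were called higher against dabrafenib, 3.47% against GDC-0879, 3.46% against RAF709, 7.15% against the MEK inhibitors and 0.235% against sorafenib. The genes with the smallest adjusted p against dabrafenib lay outside the ATF4 and sterol lists. FERMT1, an integrin activator (1.60 ± 0.15), and the filament protein VIM (0.87 ± 0.08) were higher with PLX8394, and the reductases AKR1C2 and AKR1C3 (−0.99 ± 0.10 and −1.01 ± 0.12), close paralogs between which reads can be misassigned, were lower; both belong to the NRF2 list. FERMT1 and VIM were also among the most clearly higher genes against GDC-0879, RAF709 and the MEK inhibitors.

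**Figure D5:**
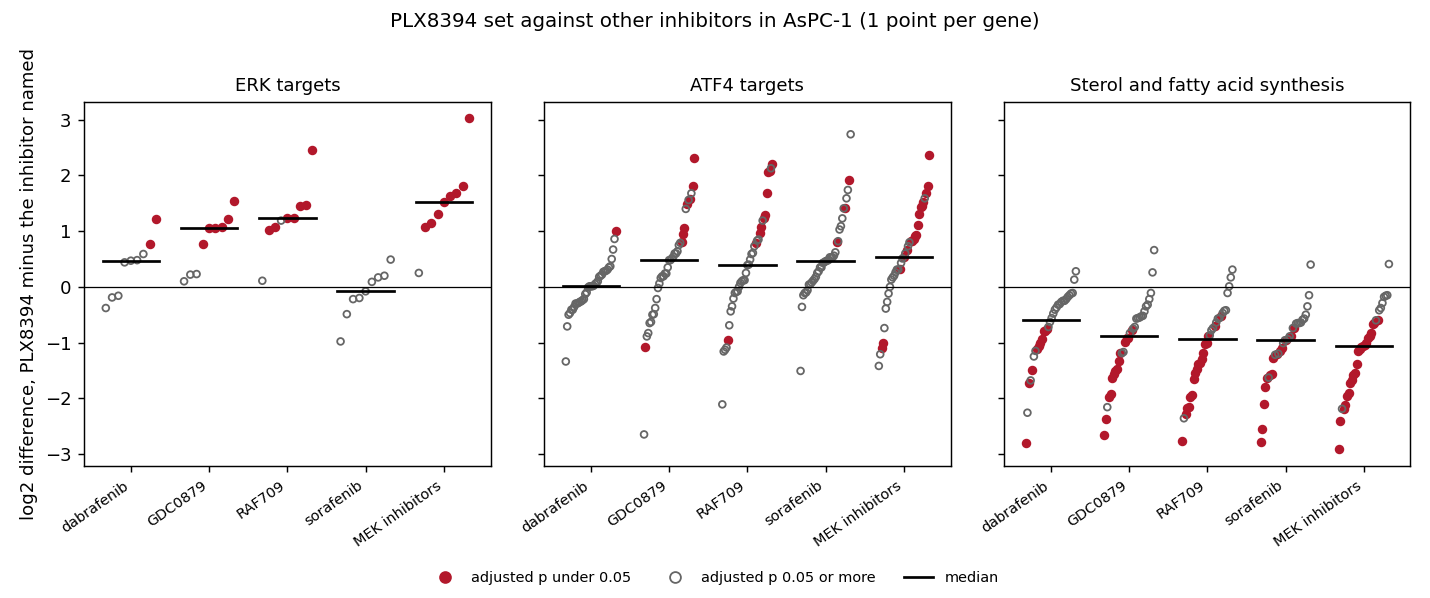
Log2 difference between PLX8394 and each other inhibitor named on the axis, 1 point per measured gene of the ERK target, ATF4 target and sterol and fatty acid lists (filled red where adjusted p is under 0.05, black lines are medians). Median differences of ERK targets are 0.47 to 1.53 except against sorafenib (−0.08), and sterol and fatty acid genes lie mostly below 0 in all 5 comparisons.

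In PANC-1, another pancreatic cancer line treated in the same way (4 PLX8394 and 12 alone libraries), PLX8394 changed 15 of 13960 genes (12 higher and 3 lower, 0.107%, or 0.086% and 0.0215%) in a fit of both lines. None of 10 ERK targets or 40 ATF4 targets was called there, and 1 of 32 sterol and fatty acid genes was, MSMO1 (−0.54 ± 0.11, adjusted p = 0.00677). The test of the difference between lines called 5 genes (0.0358%, of which 0.0287% higher and 0.00716% lower in AsPC-1). ASNS rose by 1.75 ± 0.19 more in AsPC-1 than in PANC-1 (adjusted p = 3.2e-10), where it gave 0.22 ± 0.13, and PSAT1 by 1.08 ± 0.19 more (adjusted p = 9.21e-04). ZNF546 was also called higher in AsPC-1 (4.39 ± 0.83), led by 1 library. No gene of the sterol list was called between lines, and the difference for FOSL1 was 0.04 ± 0.16. That value is a mean over both autophagy inhibitors, with which FOSL1 went in opposite directions in AsPC-1. Its value with hydroxychloroquine was not compared between lines. At an unadjusted p under 0.05, 870 genes would have been called in PANC-1 and 961 between lines.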

How the data were processed

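The deposited table holds whole read counts per gene symbol, 25435 symbols in 136 PLATE-Seq libraries, of which 4605 have no count. Per the submitters' processing notes, the tools and build were kallisto 0.44.0 and GRCh38. No values were changed here. Library totals set the precision: a gene with few counts has a wide interval. Counts of all 68 AsPC-1 libraries were fitted with edgeR 4.0.16 (R 4.3.3; quasi-likelihood test, robust, TMM scaling, expression filter by group), with 30 groups and a plate term, and p-values were adjusted over all 12761 genes by Benjamini-Hochberg; a call is an adjusted p under 0.05. All groups share 1 estimate of the spread. Both cell lines were fitted together for the difference between lines (13960 genes). Same-plate samples deviated together only weakly (r 0.01 to 0.147 over 6 pairs of groups), so plate does not establish pairs. Of these pairs 50% exceeded 0.1, against 5.75% of 435 pairs over the 30 AsPC-1 groups. CPM are TMM-scaled. On simulated data for PLX8394 against alone over 12761 genes, 44 of 100 genes changed 2-fold and 80 of 100 changed 4-fold were recovered, with 7 false calls. The simulated spread followed expression level only, with no difference between genes of the same level. Genes very high in 1 library, as seen in the data, were not simulated, so these rates hold for a cleaner setting. DESeq2 1.42.0, RLE scaling, no filter, no plate term, no mitochondrial genes, single plates, PLX8394 and alone libraries only, and leaving out each library were tried as alternatives. Named genes are 13 ERK and ATF4 genes, the called list members and the largest changes at a mean log2 CPM of at least 5, with the smallest adjusted p in other comparisons; further genes named were chosen after their values were seen. Members and lists were chosen with earlier results of these data known. Results for some genes are not reported here.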

Additional observations from a re-analysis of the deposited data

Results flagged for a closer look

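In groups of 6 alone libraries, 8 of 100 group and gene combinations tested held a library far from the other 5, and chance flags about 1 in 20. TRIB3 was 17.05 CPM in 1 plate A library with hydroxychloroquine alone, against 8.89 to 11.35 CPM in the other 5. XBP1 was 29.06 CPM in 1 plate B library with hydroxychloroquine alone, against 18.49 to 22.26 CPM, and RRM2 was 62.92 CPM in 1 plate A library with hydroxychloroquine alone, against 72.95 to 78.89 CPM. With the Vps34 inhibitor alone, 1 plate B library stood apart for IER3 (40.04 CPM), MSMO1 (138.8 CPM) and RGS16 (48.9 CPM), high in each, another plate B library was low for SARS1 (70.17 CPM), and 1 plate A library was high for DNAJB6 (116.9 CPM).

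The effect of PLX8394 differed between autophagy inhibitors, as hydroxychloroquine minus Vps34 inhibitor on the log2 scale, for HS3ST1 (5.92), RPA2 (2.61), FAM83A (1.57), C7orf50 (−1.70), TNRC6B (−4.10), ASNS (−1.37) and INTS6 (−3.07). HS3ST1, TNRC6B and INTS6 each rested on 1 library. Without the plate A library of PLX8394 with hydroxychloroquine, 0 genes were called between autophagy inhibitors. The same held with only PLX8394 and alone libraries in the fit, so none of these calls was kept in either. The effect in AsPC-1 minus that in PANC-1 passed its test for ASNS (1.75), PSAT1 (1.08) and ZNF546 (4.39), and of these ASNS and PSAT1 were called in all 8 leave-one-out fits.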

How the results depend on the processing

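None of 9 ERK targets was called under any alternative run, while the total of 97 calls fell to 60 without the plate term, 10 within plate A and 5 within plate B, and ran from 38 to 103 over leave-one-out fits; 94 of the 97 were among the 132 genes DESeq2 called. The ATF4 target count of 6 was 2 within each plate and 3 to 6 with 1 library left out, and the sterol and fatty acid count of 12, followed after its values were seen, was 2 within plate A, 1 within plate B and 6 to 12 with 1 library left out. A single plate leaves 1 PLX8394 library per autophagy inhibitor. With only PLX8394 and alone libraries, 72 genes were called for the mean over both autophagy inhibitors, and 55 of the 97 were among them. In that fit 8 of 34 measured ATF4 targets were higher and 8 of 32 sterol and fatty acid genes were lower. The share of all genes called in each direction in that fit is not given, so these list counts have no background beside them. The hydroxychloroquine count there was 14 and the count between autophagy inhibitors 0. The cause was not tested. DESeq2 called 165 genes against sorafenib and 30 between lines. Leave-one-out counts ran from 6 to 29 with hydroxychloroquine, 29 to 81 with the Vps34 inhibitor, 0 to 16 between autophagy inhibitors, 87 to 173 against dabrafenib, 595 to 865 against GDC-0879, 21 to 73 against sorafenib, 1139 to 1459 against the MEK inhibitors and 5 to 17 between lines (10 and 11 where a PANC-1 library changed the count). Signs reversed within plate A for ETV4 (−0.17) and ETV5 (0.05), within plate B for IER3 (0.10), SHOX (−0.03) and SPG7 (−0.08), and with 1 PLX8394 library left out for ETV5 (−0.46 to 0.08), RGS16 with hydroxychloroquine (−0.27 to 5.87) and the mitochondrial messenger (−0.2413 percentage points) and ribosomal protein (−0.03353 percentage points) shares, which ran up to 1.141 and 0.4268. Without the plate block 60 of the 97 calls remained. For the mean over both autophagy inhibitors, 44 of 100 genes simulated with a 2-fold change were recovered. Smaller changes, single autophagy inhibitors and genes very high in 1 library were not simulated.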
